A study of Mus musculus with 51 samples.

Results

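The mitochondrial ribosomal protein genes were taken as the protein-coding genes whose mouse symbol begins with Mrpl (large subunit) or Mrps (small subunit) followed by a digit and that had at least 10 counts in at least 5 libraries. The rule found 78 genes among the 53801 rows of the count table, 49 of the large and 29 of the small subunit. Another 5 symbols of this form were annotated as processed pseudogenes and were not members (Mrpl23-ps1, Mrpl48-ps, Mrps36-ps1, Mrps36-ps2 and Mrps36-ps3). After the filter on low counts 77 of the 78 members were tested. The exception was Mrpl53, with 242 counts over all libraries and 88.0% of its exonic bases shared on the same strand with Gm42688.

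RNA was sequenced from the mouse line C3H/10T1/2-SAM. It is of mesenchymal origin and carries dCas9-VP64 and the MS2-P65-HSF1 activator, so that a guide RNA switches on the gene it targets. Cells received an empty vector (EV), a plasmid with a guide for Pparγ (P), or plasmids with guides for Pparγ and Ybx1 (PY), with 250 ng of plasmid DNA in each case. All groups, EV included, were given 5 µM rosiglitazone, a PPARγ agonist, from 48 h after transfection, a time called day 0. The 51 libraries came from days 0, 2 and 4 of 6 numbered experiments. There were 5 libraries each in EV day 0, P day 0 and PY day 2, and 6 in each of the other groups. EV had no library of experiment 6 on day 0, P none of experiment 2 on day 0, and PY none of experiment 4 on day 2. On a given day all transfections thus share the activator machinery and the drug schedule, and no transfection lacking either was compared here. Day 0 marks the start of the drug, while days 2 and 4 follow exposure to it. Changes from day 0 therefore combine time with drug exposure, and the part of each was not tested.

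The mitochondrial ribosome translates the few messenger RNAs that mitochondrial DNA encodes, all of them for subunits of the oxidative phosphorylation complexes. Its own proteins are encoded in the nucleus, made in the cytosol and imported. Some descend from bacterial ribosomal proteins and others are particular to mitochondria. Fat cell differentiation is known to be accompanied by growth of the mitochondrial compartment, and PPARγ is the main transcription factor of that differentiation.

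Promoters are shown for the 4 members with the largest and the 2 with the smallest log2 fold change of P against EV on day 4 among those with a window (Mrps35 had none), and for Mrpl32, which held the most matches to a motif. The sequences come from RefSeq (GRCm38.p6), which had a promoter window, 250 bases before to 50 bases after the transcription start, for 69 of the 78 members and 75 windows in all. Each line gives the 120 bases before the start, on the gene's strand. Capitals mark the core letters of binding motifs of factors known to act on genes for mitochondrial proteins: GCATGCGC for NRF1, CCGGAAG for ETS factors such as GABP, and AAGATGGC for YY1. Both strands were searched, so a motif can appear as its reverse complement, and neighbouring NRF1 matches can overlap.

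Mrpl12, chr11:120484517-120484636, plus strand: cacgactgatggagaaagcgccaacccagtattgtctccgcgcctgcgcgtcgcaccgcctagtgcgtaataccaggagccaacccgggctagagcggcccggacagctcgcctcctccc
Mrps22, chr9:98601680-98601799, minus strand: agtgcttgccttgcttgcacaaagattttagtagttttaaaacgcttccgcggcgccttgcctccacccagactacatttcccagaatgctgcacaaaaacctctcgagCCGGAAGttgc
Mrpl20, chr4:155802758-155802877, plus strand: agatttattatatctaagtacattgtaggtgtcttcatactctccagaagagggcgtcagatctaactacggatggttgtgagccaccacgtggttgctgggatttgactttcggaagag
Mrpl45, chr11:97315596-97315715, plus strand: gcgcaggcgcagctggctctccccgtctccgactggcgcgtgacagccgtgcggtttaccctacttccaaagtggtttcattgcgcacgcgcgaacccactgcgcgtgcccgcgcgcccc
Mrpl52, chr14:54426789-54426908, plus strand: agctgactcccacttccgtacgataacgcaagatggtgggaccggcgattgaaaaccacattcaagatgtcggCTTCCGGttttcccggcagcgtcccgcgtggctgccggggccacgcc
Mrpl33, chr5:31613831-31613950, plus strand: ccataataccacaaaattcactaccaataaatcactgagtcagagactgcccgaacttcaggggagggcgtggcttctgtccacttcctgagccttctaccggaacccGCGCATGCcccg
Mrpl32, chr13:14613038-14613157, minus strand: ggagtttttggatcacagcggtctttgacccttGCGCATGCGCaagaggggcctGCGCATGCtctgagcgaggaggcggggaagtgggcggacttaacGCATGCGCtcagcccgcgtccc

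Of the 75 windows of members, 34.7% held the ETS core, 16% the YY1 core and 10.7% the NRF1 core. Among the 13382 windows of all tested protein-coding genes the shares were 16.4%, 4.14% and 4.94%. In the windows of cytosolic ribosomal protein genes they were 36.8%, 11.8% and 4.41%, and in those of nuclear genes for oxidative phosphorylation subunits 23.5%, 13.2% and 14.7%. A direct repeat to which PPARγ binds with its partner RXR, 2 copies of AGGTCA with any 1 base between them, was in no member window and in 0.0448% of the windows of tested genes. TATAAA was in 6.67% of member windows and 7.47% of those of tested genes. Counting for each member only the window nearest its gene start, here and in the medians below, 36 of 69 members held at least 1 of the 3 cores. This share was not counted for all genes. Of the 4 shown stretches of members with the largest differences, that of Mrps22 held 1 core and those of Mrpl12, Mrpl20 and Mrpl45 held none, and those of Mrpl52 and Mrpl33, with the smallest, held 1 each. Mrpl32, with 4 NRF1 cores, had a log2 difference of 0.18 there that did not pass. Members with the ETS core (23) had a median log2 fold change of 0.20 in P against EV on day 4, and those without it (45) 0.29. The medians were 0.23 for 12 members with the YY1 core and 0.29 for 56 without, and 0.26 for 8 with the NRF1 core and 0.28 for 60 without.

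The targeted genes matched the labels. Pparg was 4.69, 5.30 and 4.18-fold higher in P than in EV on days 0, 2 and 4, and 5.08, 5.28 and 4.64-fold higher in PY. Ybx1 was 3.11, 3.07 and 3.24-fold higher in PY than in EV, while its folds in P, at most 1.04, did not pass the test. Total counts per library ran from 3.38 M to 115 M with a median of 22.4 M. All 7 tested markers of fat cells rose in P and PY on days 2 and 4, and their summed level on day 4 was 38.5 to 295 CPM (counts scaled to a common library size) in EV, 2513 to 8819 in P and 1249 to 10398 in PY. Lep, the eighth marker, was at 0 in 43 of 51 libraries. Markers of fibroblasts and preadipocytes summed to 6162 to 12391 CPM in EV on day 4 and 4473 to 9690 in P and 4223 to 7422 in PY. Macrophage markers summed to 1.75 to 10.1 CPM, with Ptprc at 0 in 27 of 51 libraries and Adgre1 in 40. In these bulk libraries, fewer cells of a type and less RNA per cell cannot be told apart.

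Member levels differed widely. Per kilobase of exon, the 77 tested members ranged from 0.711 to 115 CPM with a median of 13.4, and exon lengths from 607 to 8631 bases. The median level per kilobase was 16.8 CPM for the large subunit and 8.57 CPM for the small subunit. The extremes of the large subunit were Mrpl23 (0.711) and Mrpl54 (115), and those of the small subunit Mrps33 (2.89) and Mrps6 (63.7), all in CPM per kilobase. Of the 78 members, 76 had at least 10 counts in every library. As a description over the 51 libraries, which share their 9 groups, the correlation of a member's log level with the mean of the other members had a median of 0.631, and within groups the median was 0.636. The lowest correlations over all libraries were those of Mrps6 (0.039), Mrpl52 (0.088) and Mrps34 (0.194), which were 0.045, 0.087 and −0.053 within groups.

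The summed level of the large subunit in EV was 1843 ± 220 CPM (SD, n = 5) on day 0, 1663 ± 103 (n = 6) on day 2 and 1518 ± 202 (n = 6) on day 4. In P it was 1843 ± 136 (n = 5), 1917 ± 265 (n = 6) and 1879 ± 231 (n = 6). In PY it was 1827 ± 139 (n = 6), 1925 ± 279 (n = 5) and 1971 ± 204 (n = 6). The EV mean was thus lower on the later days, while the P and PY means were not. On day 4 the lowest, median and highest large subunit sums were 1325, 1433 and 1825 CPM in EV, 1481, 1934 and 2160 in P, and 1613, 1981 and 2216 in PY. The groups overlapped. The small subunit ran from 932 ± 101 (n = 5) on day 0 through 866 ± 49.7 (n = 6) to 834 ± 88.0 CPM (n = 6) in EV. It ran from 951 ± 52.1 (n = 5) through 1015 ± 116 (n = 6) to 1020 ± 115 (n = 6) in P, and from 940 ± 48.9 (n = 6) through 1033 ± 123 (n = 5) to 1075 ± 121 (n = 6) in PY. Day 4 sums of the small subunit ran from 719 to 930 CPM in EV, 799 to 1111 in P and 869 to 1194 in PY.

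**Figure D1:**
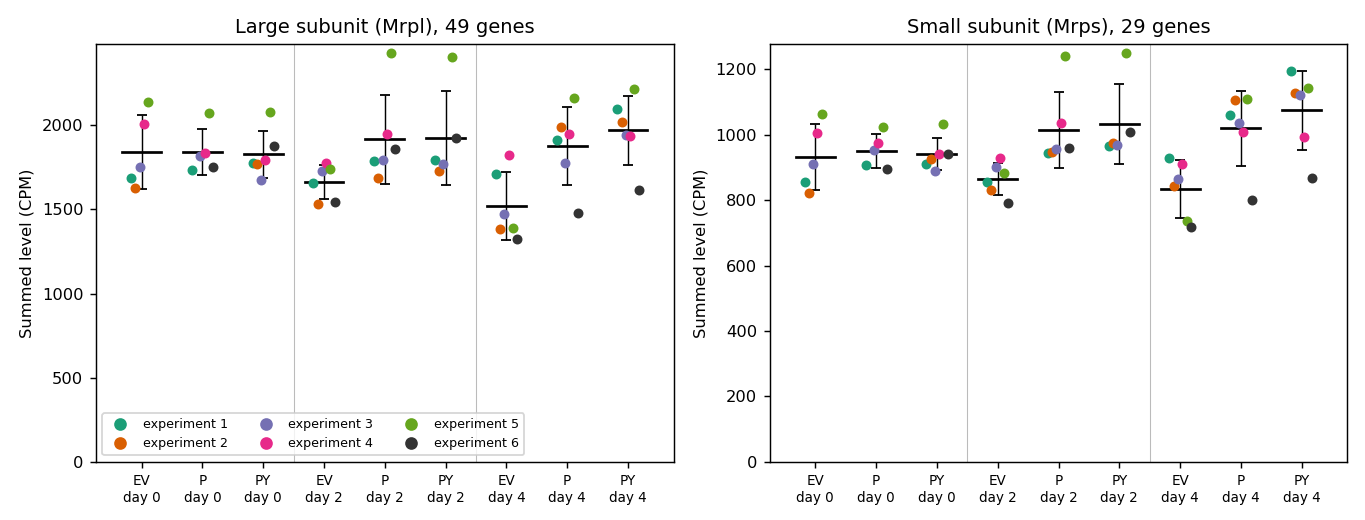
Summed CPM of the large and small subunit members (y axes) in each library by transfection and day (x axis), coloured by experiment, with bars for the mean ± SD. EV means were lower on day 4 than on day 0 (1518 against 1843 CPM for the large subunit), while P and PY means were not, and libraries of the groups overlap on day 4.

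On day 4, the question was which of these genes differ between cells with activated Pparγ and the empty vector control. Here and below, rose in P or PY on a given day means above EV that day, not an increase over days. Of 77 members, 10 rose in P against EV and none fell (edgeR quasi-likelihood test, Benjamini-Hochberg adjusted p under 0.05). That is 13% of members, where 5.38% of all 17015 tested genes were called, 5.18% as higher. The risers were Mrpl12, Mrpl20, Mrpl34, Mrpl38, Mrpl45 and Mrpl51 of the large subunit and Mrps2, Mrps9, Mrps22 and Mrps35 of the small subunit. Another 28 had an unadjusted p under 0.05, and 75 of 77 log2 fold changes were positive, between −0.07 and 0.86 with a median of 0.27, against −0.06 over all tested genes. With the experiment as a block, 34 members rose and none fell, where 10.1% of all genes were called. Of the 10, Mrpl34, Mrpl51 and Mrps35 also passed as higher within P from day 0 to day 4. The others passed in neither direction there.

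The count of 10 depended on single libraries and experiments. It was 6 without experiment 1, 3 without experiment 2, 19 without experiment 4 and 5 without experiment 5. Leaving out 1 library gave 22 without EV of experiment 4, 6 without EV of experiment 6, 6 without P of experiment 2, 6 without P of experiment 5 and 27 without P of experiment 6. The shares of all genes called are not given for these or the later leave-out fits. A shift particular to the members therefore cannot be told from one shared by all genes. In each experiment the median log2 ratio of P to EV over the members (0.5 CPM added to each level) was positive: 0.18, 0.46, 0.19, 0.10, 0.60 and 0.15 for experiments 1 to 6. The fat cell marker sums of the same P libraries were 3254, 8819, 5257, 2513, 8258 and 3485 CPM. The experiments with the highest member medians, 5 and 2, also had the highest marker sums, and experiment 4 the lowest of both. The part of cell composition in the member differences was not tested.

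Mrpl12, which forms the flexible stalk of the large subunit with Mrpl10 and lies at chr11:120484613-120489065, had the largest difference. On day 4 its level was 28.7, 34.6 and 42.5 CPM in EV (lowest, median, highest of 6), 42.8, 62.4 and 89.4 in P, and 48.2, 79.6 and 96.8 in PY. The highest EV and the lowest P library, both of experiment 1, nearly met but did not overlap. Mrpl12 was 1.81-fold higher in P (log2 0.86 ± 0.19 SE, edgeR adjusted p = 0.00196), with the same direction in 6 of 6 experiments. The gene shares 13.1% of its exonic bases with Gm16755 on the opposite strand, and the strand setting of the counting is not given in the sources used here.

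Mrps22, a small subunit protein particular to mitochondria whose human form is linked to inherited defects of mitochondrial translation, lies at chr9:98588730-98601660. Its day 4 level was 16.7, 18.9 and 23.9 CPM in EV (lowest, median, highest), 23.3, 31.96 and 43.8 in P, and 25.1, 35.8 and 42.0 in PY. P overlapped EV only through its lowest library, of experiment 6, and PY did not overlap EV. Mrps22 was 1.63-fold higher in P than in EV (log2 0.70 ± 0.15 SE, edgeR adjusted p = 0.000968), in 6 of 6 experiments. Its P libraries had run from 26.9 to 35.9 CPM on day 0. Mrps22 was also the 1 member that rose in P on day 2, when 2.84% of all genes were called, 2.78% as higher. There it was at 21.3, 23.5 and 26.6 CPM in EV and 31.5, 35.1 and 51.7 in P, with no overlap, and the rise was 1.60-fold (edgeR adjusted p = 0.00298, 6 of 6 experiments). On that day 2.17% of all genes had P entirely above EV.

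Further rises in P on day 4 were smaller. Mrpl20 rose 1.57-fold (edgeR adjusted p = 0.0193) and Mrpl45, which holds the ribosome at the inner membrane, 1.49-fold (0.0247). Both lost the call without experiment 1 (0.062 and 0.0646) and without experiment 2 (0.153 and 0.183). In all, leaving out a library or an experiment ended the call of Mrpl45 in 8 of 18 fits and that of Mrpl20 in 5 of 18. For Mrpl45 these were also the fits without experiment 5, P of experiment 5 or EV of experiment 2, 3, 5 or 6, and for Mrpl20 those without P of experiment 1 or EV of experiment 3 or 6. Mrps35 rose 1.496-fold (0.00189) and Mrpl38 1.48-fold (0.0167), the latter in 5 of 6 experiments and the former in all. The other 4 rose between 1.29-fold (Mrps9) and 1.41-fold (Mrps2). Groups did not overlap for 3 members (Mrpl12, Mrps36 and Mrpl55, the last named only for this after its values were seen), where 3% of all genes had P entirely above EV.

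At the other end, Mrpl52 was at 19.8, 23.9 and 27.6 CPM in EV and 16.9, 22.8 and 28.9 in P on day 4 (lowest, median, highest). Its fold was 0.955 with a 95% interval of 0.795 to 1.15. Mrpl33 was at 21.3, 22.4 and 25.5 CPM in EV and 19.9, 23.0 and 26.2 in P, with an interval for the fold of 0.865 to 1.16. For both the groups overlapped fully, and the upper bounds lay below the fold of Mrpl12. Mrps12, at the decoding site, and Mrpl58, a peptidyl-tRNA hydrolase built into the large subunit, had log2 differences of 0.04 ± 0.15 and 0.02 ± 0.13 (SE) that did not pass.

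**Figure D2:**
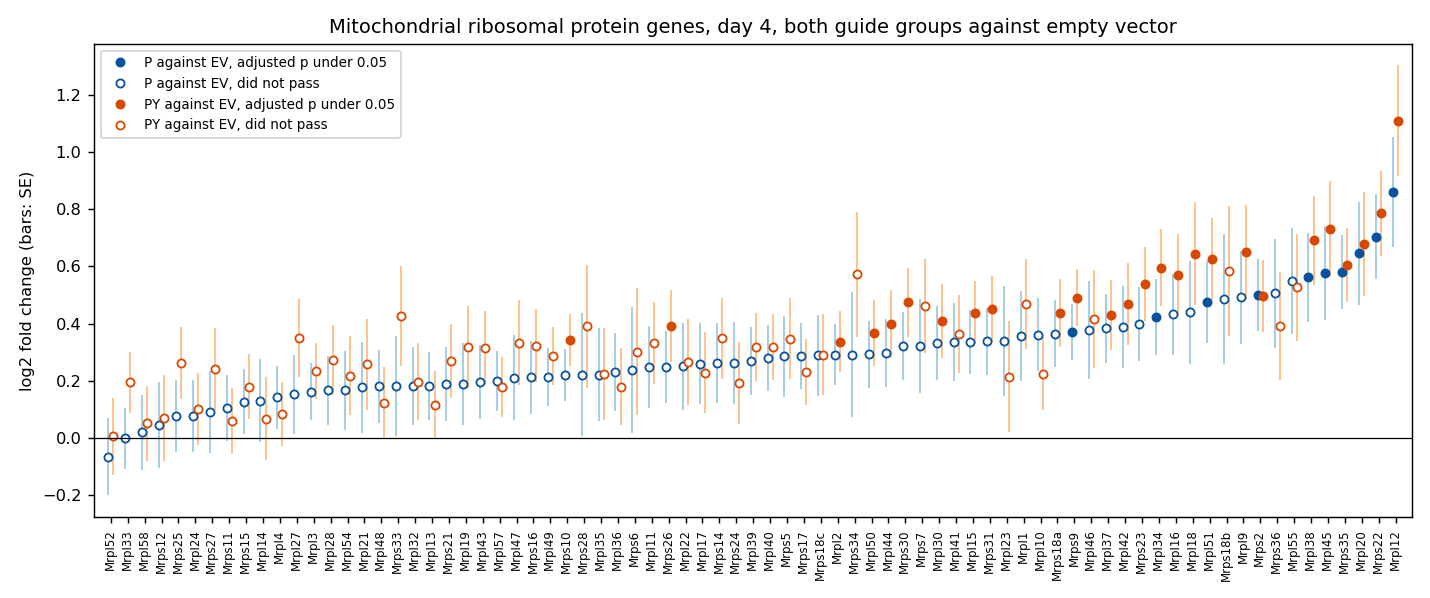
Log2 fold change on day 4 with SE (y axis) of the 77 tested members (x axis, ordered by P against EV), for P against EV in blue and PY against EV in orange, with filled points for members that passed. Nearly all points lie above 0, from Mrpl52 at −0.07 to Mrpl12 at 0.86 in P, and 10 blue and 26 orange points are filled.

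In PY against EV on day 4, 26 of 77 members rose and none fell, 16 of the large and 10 of the small subunit. That is 33.8% of members, where 7.83% of all tested genes were called, 7.03% as higher. All 77 log2 fold changes were positive, up to 1.11, with a median of 0.34 against −0.05 over all genes. With the experiment as a block 47 rose, where 15.8% of all genes were called, and without experiment 2 the count was 12. P and PY were compared with the same EV libraries, so these counts are not independent of each other.

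The largest rise in PY was again that of Mrpl12, 2.16-fold (log2 1.11 ± 0.19 SE, edgeR adjusted p = 4.12e-05), in 6 of 6 experiments and with no overlap with EV. Mrps22 rose 1.72-fold (log2 0.79 ± 0.15 SE, adjusted p = 0.000151). Mrpl45, Mrpl38 and Mrpl20 followed with log2 fold changes of 0.73, 0.69 and 0.68, and the last of these lost its call without experiment 2 (adjusted p = 0.0676). The remaining 21 risers lay between log2 0.34 (Mrpl2 and Mrps10) and 0.65 (Mrpl9). Groups did not overlap for 3 members (Mrpl12, Mrps22 and Mrps9), where 2.47% of all genes had PY entirely above EV. By experiment the member medians of log2 PY to EV were 0.32, 0.43, 0.35, 0.08, 0.61 and 0.21 for experiments 1 to 6, and the fat cell marker sums in PY were 5927, 10398, 7777, 1249, 9436 and 7143 CPM. Experiment 4 was lowest in both, but the orders differed elsewhere. Experiment 2 had the highest marker sum and experiment 5 the highest member median. Experiment 6 had a higher marker sum than experiment 1 and a lower member median. Of the fibroblast and preadipocyte markers, 1 of 8 (Pdgfrb, log2 −0.51, edgeR adjusted p = 0.0123) fell in PY against EV on day 4, with no overlap between the groups. Among all genes, 0.793% were called as lower there and 0.5% had PY entirely below EV. The part of the marker shift in the member rises was not tested.

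On day 2, 5 members rose in PY against EV, 6.49% of them, where 4.74% of all genes were called, 4.34% as higher and 0.394% as lower. They were Mrps22 (1.77-fold, edgeR adjusted p = 0.000275), Mrpl51 (log2 0.57), Mrpl1 (0.54), Mrps35 (0.51) and Mrpl34 (0.45). The first of these held under every alternative, and the others did not. With the block the counts on day 2 were 6 in P, where 5.49% of all genes were called, and 15 in PY, where 10.2% were. The PY count on day 2 was 1 without experiment 2, 8 without experiment 3, 1 without experiment 5 and 2 without experiment 6. Leaving out single libraries gave 3 without EV of experiment 2, 3 without EV of experiment 5, 1 without EV of experiment 6 and 1 without PY of experiment 5. The P count of 1 on day 2 was 2 without experiment 3, 2 without experiment 4 and 3 without EV of experiment 4. On day 0 no member passed in P or PY by edgeR, with or without the block, or by DESeq2, none had an unadjusted p under 0.05, and 0.00588% and 0.047% of all genes were called in P and in PY. The median log2 fold changes were −0.00 in P and −0.01 in PY.

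Whether the P to EV difference grew from day 0 was tested directly as an interaction. By edgeR no member passed from day 0 to day 2 (2 at an unadjusted p under 0.05, 0 by DESeq2) or from day 0 to day 4 (19 at an unadjusted p under 0.05, 0 by DESeq2), where 0.0588% and 0.288% of all genes were called. With the block 1 member passed from day 0 to day 4, or 1.3% of members, where 1.32% of all genes were called. The median log2 change of the difference from day 0 to day 4 was 0.27 over the members and −0.06 over all genes. It was 0.70 ± 0.22 (SE) for Mrps22 (edgeR adjusted p = 0.185, 0.062 with the block) and 0.67 for Mrpl12 (0.566).

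Adding the Ybx1 guide was tested by comparing PY with P. By edgeR no member passed on day 0, 2 or 4, with or without the block, none had an unadjusted p under 0.05, and none passed by DESeq2. Of all genes, 0.0294%, 0.0118% and 0.0176% were called. The member medians were log2 −0.02, 0.02 and 0.07. On day 4 the members ranged from −0.14 to 0.28, and 62 of 77 were positive. Mrpl12 was 1.19-fold higher in PY than in P with an interval of 0.919 to 1.54, and Mrps22 1.06-fold with 0.867 to 1.29, and both intervals include equal levels.

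**Figure D3:**
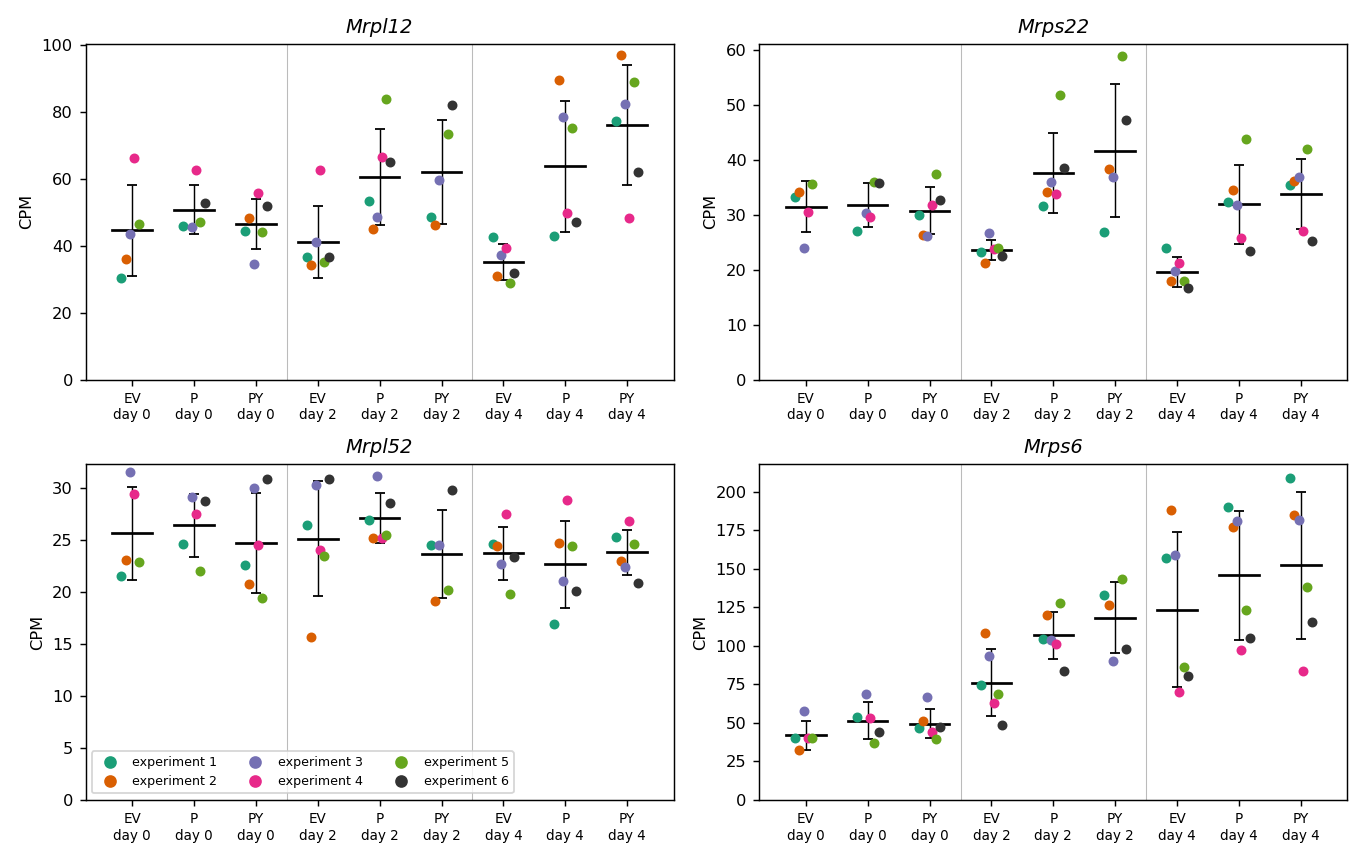
CPM of Mrpl12, Mrps22, Mrpl52 and Mrps6 (y axes) in each library by transfection and day (x axis), with bars for the mean ± SD. Mrpl12 and Mrps22 were higher in P and PY than in EV on day 4, Mrpl52 overlapped in all groups, and Mrps6 increased with the days in EV, P and PY.

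Over the 4 days in EV the members went mostly down: 31 fell and 3 rose, where 30% of all genes were called, 14.9% as lower and 15.1% as higher. The fallers made up 40.3% of members, and no left-out library or experiment moved the total of 34 by more than 1.5 times (26 to 40). The median log2 change was −0.28 against 0.02 over all genes, and 63 of 77 changes were negative. By experiment it was 0.00, −0.25, −0.28, −0.20 and −0.60 for experiments 1 to 5. For 14 members every day 4 library lay below every day 0 library, where 6.32% of all genes did. Of the endothelial markers, 2 of 3 tested fell in EV over these days. The sum of all 5 endothelial markers nevertheless went from a median of 14.9 CPM on day 0 to 36.3 on day 4. Over all libraries Tek had a median of 22.7 CPM, against 0.365 for Kdr and 0.335 for Pecam1. In the same comparison 3 of 8 fibroblast markers and 6 of 7 tested fat cell markers rose. The parts of these marker shifts and of drug exposure, which began on day 0, in the member changes were not tested.

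Mrpl46 fell most, from 25.1 ± 5.58 (SD, n = 5) to 12.9 ± 3.75 CPM (n = 6), a log2 change of −0.96 ± 0.18 SE (edgeR adjusted p = 9.21e-05). It shares 12.2% of its exonic bases with Mrps11 on the opposite strand. Mrps22 was at 33.2, 34.1, 24.0, 30.5 and 35.6 CPM in EV on day 0 in experiments 1 to 5, and at 16.7 to 23.9 on day 4. The highest day 4 library lay just below the lowest of day 0, and the log2 change was −0.69 ± 0.16 (SE, edgeR adjusted p = 0.000773). Others that fell were Mrps18b (log2 −0.84), Mrpl19 (−0.73), Mrpl38 (−0.70) and Mrpl44 (−0.69), whose human form is linked to inherited disease of heart muscle. Mrps18b and Mrpl19 share 30.5% and 36% of their exonic bases with Gm16279 and Gcfc2 on the opposite strand. Mrps18b lost its call without experiment 5 (adjusted p = 0.0564). Mrpl12 had a log2 change of −0.34 ± 0.20 (SE) that did not pass (adjusted p = 0.195). By day 2 in EV 6 members had fallen (Mrpl9, Mrpl30, Mrpl38, Mrpl44, Mrps30 and Mrps31) and Mrps6 had risen, where 7.29% of all genes were called, 4.43% as lower and 2.87% as higher. With the block 2 rose and 18 fell, where 22% of all genes were called. The day 2 total of 7 ran from 0 (without experiment 1, 2 or 5, or without EV day 2 of experiment 2) to 12 (without EV day 2 of experiment 4). It was 1 without experiment 6, 4 without EV day 0 of experiment 1 or 2, 1 without that of experiment 4 or 5, and 2, 3 and 1 without EV day 2 of experiments 1, 5 and 6.

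In P, 13 members rose and 7 fell from day 0 to day 4 (16.9% and 9.09% of members), where 37.3% of all genes were called, 18.7% as higher and 18.6% as lower. With the block the counts were 16 and 15, where 25.3% of all genes were called as higher and 26.1% as lower. The median log2 change was −0.00. In PY 18 rose and 6 fell (23.4% and 7.79%), where 37.5% of all genes were called, 19.7% as higher and 17.8% as lower, and the median was 0.06. The PY total of 24 was 13 without experiment 1 and 14 without experiment 5. Mrpl42, Mrps21 and Mrps6 rose in all 3 transfections. In EV the call of Mrps21 was lost in 11 of 17 fits that left out a library or an experiment, among them those without experiments 1, 2 and 4, and that of Mrpl42 in 4 of 17 (without experiment 1, experiment 2, EV day 0 of experiment 4 or EV day 4 of experiment 2). That of Mrps6 was kept in all 17. Mrpl42 went from 47.7 ± 7.26 (n = 5) to 65.8 ± 10.55 CPM (n = 6) in EV, from 49.05 ± 8.59 (n = 5) to 86.1 ± 15.9 (n = 6) in P, and from 47.3 ± 3.21 (n = 6) to 91.1 ± 20.8 (n = 6) in PY (mean ± SD). Mrpl55 and Mrpl34 rose in P (log2 0.83 and 0.67), and Mrpl34 and Mrpl12 in PY (0.84 and 0.70). By day 2, 6 members (7.79%) had risen in P and none had fallen. Of all genes 14% were called there, 6.99% as higher and 6.98% as lower. In PY 9 (11.7%) had risen and Mrps10 (1.3%) had fallen, where 22.8% were called, 11.4% in each direction. The shares of members that had risen were thus near those of all genes. With the block, 10 rose and 5 fell in P by day 2, where 28.6% of all genes were called, and 14 rose and 4 fell in PY, where 35.6% were. The day 2 total in P was 1 without experiment 5, 3 without P day 0 of experiment 6 and 2 without P day 2 of experiment 5. In PY it was 4 without experiment 5.

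Of the 31 members that fell in EV over 4 days, 7 also fell in P (Mrpl3, Mrpl19, Mrpl21, Mrpl44, Mrpl46, Mrps10 and Mrps30), 24 did not pass there and none rose. Likewise 6 fell in PY (Mrpl19, Mrpl32, Mrpl44, Mrpl46, Mrps10 and Mrps18c), 25 did not pass and none rose. Several of these falls were lost when a library or an experiment was left out. In P this was so for Mrpl21 in 9 of 17 such fits, Mrpl46 in 8 and Mrpl44 in 1, and for Mrpl19 and Mrps30 in none. In PY it was so for Mrpl32 in 12 of 18, Mrpl46 in 10, Mrps18c in 7, Mrpl19 in 2 and Mrps10 in 1. These fits were not read for Mrpl3 and Mrps10 in P or for Mrpl44 in PY. Of the members that did not pass in EV, 10 rose in P and 15 in PY. Passing in one transfection and not in another does not show that they differ. The direct test for P above called no member without the block and 1 with it, and none was run for PY.

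**Figure D4:**
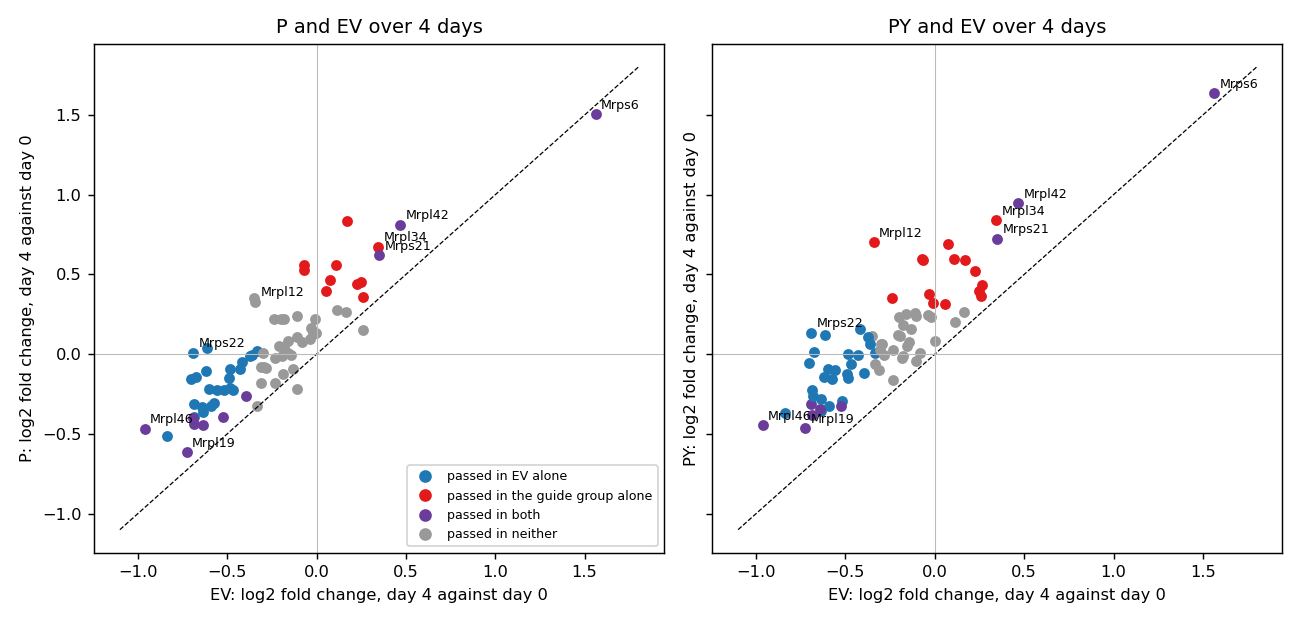
Log2 change from day 0 to day 4 of each member in EV (x axis) against P and PY (y axes), coloured by the transfections in which it passed, with a dashed line of equal change. Most members lie left of 0 in EV (31 fell, 3 rose) and above the dashed line in P and PY. Mrps6 lies farthest to the upper right.

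Mrps6, a small subunit protein with a bacterial counterpart, stood apart. In EV its day 0 levels were 39.9, 32.1, 57.7, 40.2 and 40.2 CPM in experiments 1 to 5, and its day 4 levels 157, 189, 159, 70.0, 86.0 and 80.6 CPM in experiments 1 to 6. All day 4 libraries were above all day 0 libraries, as they were for 6.41% of all genes in EV. On day 4 experiments 1 to 3 were higher than 4 to 6. The rise was 2.95-fold in EV, 2.84-fold in P and 3.11-fold in PY (edgeR adjusted p = 7.44e-06, 5.11e-06 and 3.43e-07). On day 4 P and EV overlapped, with a log2 difference of 0.24 (adjusted p = 0.767). Mrps6 shares 10.4% of its exonic bases on the same strand with Slc5a3, a myo-inositol transporter gene nested in its locus, and 19.9% with Gm49711. Slc5a3 rose from a mean of 70.3 to 483 CPM in EV (log2 2.79), so how far reads of these genes were told apart was not tested. Without Mrps6, the summed small subunit level went from 890 to 711 CPM in EV, 900 to 874 in P and 891 to 923 in PY.

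By subunit, 6 of 48 tested large subunit members and 4 of 29 small subunit members rose in P on day 4, with medians of log2 0.26 and 0.29. Among all tested genes, 5.18% were called as higher in that comparison. In EV over 4 days 20 large subunit members fell and 1 rose (median −0.30), and 11 small subunit members fell and 2 rose (median −0.23). There 14.9% of all genes were called as lower and 15.1% as higher.

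Single roles differed in level of evidence. Mrpl10, the stalk partner of Mrpl12, had a log2 difference of 0.36 in P on day 4 (edgeR adjusted p = 0.0983, 0.014 with the block) and 0.23 in PY (0.386). The 3 paralogues that descend from 1 bacterial protein were Mrps18a at 0.37 in P (0.0602, 0.0014 with the block), Mrps18b at 0.49 (0.335) and Mrps18c at 0.29 (0.388). Of these, Mrps18a rose in PY (log2 0.44, adjusted p = 0.011). The protein of Mrps18a, like that of Mrps30, sits in the large subunit despite its symbol. Mrps30 had a log2 difference of 0.32 in P (0.135) and rose in PY (0.47, adjusted p = 0.0056).

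Mrps36, whose protein is known as a subunit of the 2-oxoglutarate dehydrogenase complex, was at 7.18, 8.94 and 10.2 CPM in EV, 10.8, 11.98 and 15.9 in P and 8.22, 9.93 and 18.1 in PY on day 4 (lowest, median, highest). P did not overlap EV, and PY did. Its log2 difference in P was 0.51 ± 0.19 SE, which did not pass by edgeR (adjusted p = 0.14) and passed with the block (0.0224). Among members whose human forms are linked to disease, Mrpl44 had a log2 difference of 0.30 in P (0.198) and rose in PY (0.40, adjusted p = 0.0275). Mrps16 (0.21 and 0.32 in P and PY) and Mrps34 (0.29 and 0.57) did not pass in either. Mrps34 shares 37.0% of its exonic bases with Nme3 on the same strand and 63.4% with Mapk8ip3 on the opposite strand. How far reads of these genes were told apart was not tested.

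Other genes of mitochondrial translation were read from lists of known function. In P against EV on day 4, 5 of 14 translation factors rose and none fell (median log2 0.33), among them the elongation factors Gfm1 (0.65) and Tufm (0.57) and Gfm2 (0.62), which takes part in recycling ribosomes. Of 20 mitochondrial aminoacyl-tRNA synthetases 3 rose, led by Mars2 (0.88), with a list median of 0.19. Of 24 assembly factors 1 rose (Mterf4, 0.44, list median 0.16). Of 5 mitochondrial ribosomal proteins with other symbols 1 rose (Ptcd3, 0.49, list median 0.24). Of 10 genes of mitochondrial transcription and RNA stability 1 rose (Supv3l1, 0.40, list median 0.29). In PY the counts were 7, 5, 3, 1 and 3, with medians of 0.33, 0.23, 0.19, 0.26 and 0.23. Among all tested genes, 5.18% were called as higher in P and 7.03% in PY. The 1 of 24 assembly factors in P is thus near the share of all genes, and the lists are short.

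Nuclear genes for oxidative phosphorylation subunits, the complexes that the mitochondrial ribosome's products join, had larger differences. Of these, 54 of 77 rose in P on day 4 with a median log2 fold change of 0.66, and 62 in PY with 0.77. Among all tested genes, 5.18% and 7.03% were called as higher there. The summed level of the oxidative phosphorylation genes went from 6091 to 6709 CPM in EV and from 6080 to 11257 in P between days 0 and 4. Of the 13 mitochondrially encoded messenger RNAs 7 were tested. By edgeR none passed in P (2 at an unadjusted p under 0.05, 0 with the block) or in PY (3 unadjusted, 2 with the block), with medians of 0.73 and 0.80. Of 79 cytosolic ribosomal protein genes none passed by edgeR in P (1 unadjusted, 1 with the block) or in PY (2 unadjusted, 2 with the block), with medians of −0.04 and −0.05. In EV over 4 days, 5 oxidative phosphorylation genes rose and 1 fell, and 1 cytosolic ribosomal protein gene rose and 1 fell, beside 31 fallers among the members. Among all genes, 15.1% were called as higher and 14.9% as lower there. Calls in these 2 other lists were thus fewer than those shares in either direction. The differences between lists were not tested.

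Of 9 regulators of mitochondrial biogenesis, 2 rose in P on day 4, where 5.18% of all tested genes were called as higher. Ppargc1b, a coactivator, was at 0.367, 0.971 and 5.502 CPM in EV and 3.94, 11.1 and 47.0 in P (lowest, median, highest), with overlap, and rose 10.0-fold (edgeR adjusted p = 0.000531). Esrra, a nuclear receptor that works with it, rose by log2 0.75 (0.0109). The others, among them Nrf1, Gabpa and Yy1, whose motifs were searched above, did not pass in P or PY on day 4. In EV over 4 days 4 regulators fell: Myc (log2 −2.03), Pprc1 (−0.86), Gabpb1 (−0.67) and Yy1 (−0.52). There 14.9% of all genes were called as lower.

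**Figure D5:**
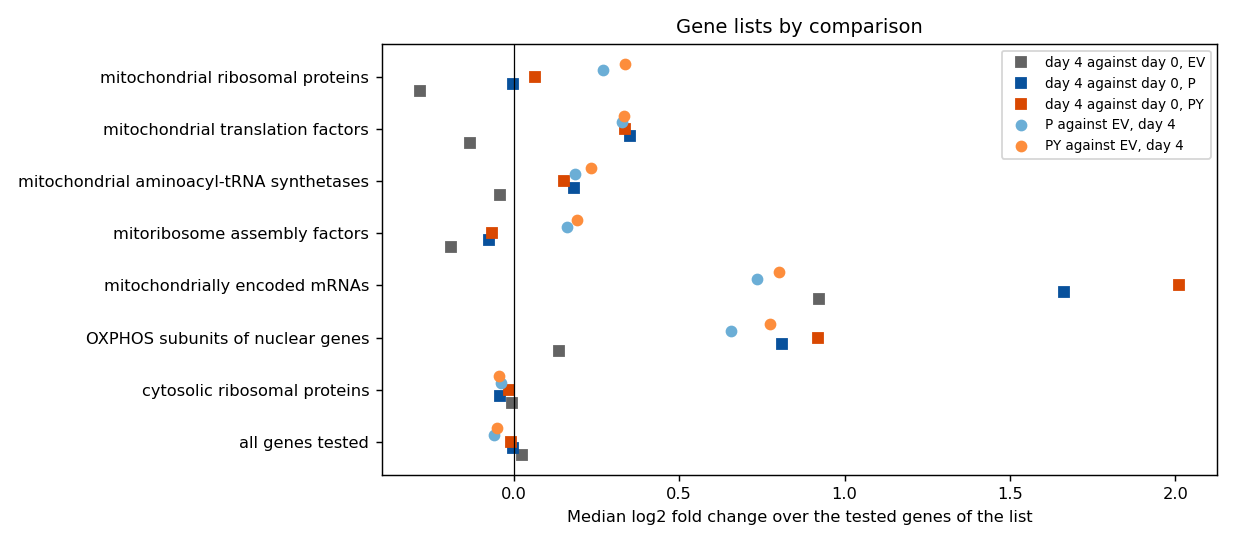
Median log2 fold change of each gene list (x axis) in 5 comparisons (colours). The members lie between the oxidative phosphorylation list and the cytosolic ribosomal proteins in P against EV on day 4 (0.27, against 0.66 and −0.04), and below 0 in EV from day 0 to day 4 (−0.28).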

How the data were processed

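Total RNA depleted of ribosomal RNA was sequenced with a stranded kit, per the labels' protocols. The authors deposited raw counts per gene for 51 libraries, made with STAR 2.5.3a and featureCounts 1.5.2 on mm10, with edgeR 3.22.0 also named, per the submitters' processing notes. The annotation release, strand setting and handling of reads with several matches are not given in the sources used here. Gene classes came from GENCODE release M21, which matched 53706 of 53801 identifiers.

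Genes were filtered with filterByExpr, leaving 17015, and scaled by TMM. A model with 9 group means was fitted to all genes (edgeR 4.0.16, R 4.3.3, quasi-likelihood test, Benjamini-Hochberg adjusted p under 0.05), giving 17 comparisons. CPM used the TMM-scaled library sizes. The procedure was tested on simulated data without an effect of experiment. That test cannot show how it performs where libraries share an experiment. Alternatives were the experiment as a block, RLE scaling, total counts, no filter, DESeq2 1.42.0, leaving out the 2 libraries of lowest total, and leaving out each library or experiment.

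The labels number the experiments, and this pairs libraries: the deviations of 192 same-experiment pairs had a median correlation of 0.364, those of 963 other pairs −0.0886. Nothing states whether libraries came from separate cultures beyond the experiment number, and p-values measure the spread between these libraries. The main fit did not pair by experiment, so its spread includes differences between experiments. The common coefficient of biological variation was 0.325 without the block and 0.202 with it. The members and lists were chosen with earlier results of these data known. Genes were named by rule: the 5 passing members with the largest changes per comparison and direction, the highest and lowest levels per kilobase in each subunit, the smallest differences in P on day 4, members of known role, and those least correlated with the rest.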

Additional observations from a re-analysis of the deposited data

Results flagged for a closer look

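In 8 of 63 groups of values examined, a library lay far from the rest of its group by Dixon's test, which flags about 1 in 20 groups by chance. Of these, 6 were values from experiment 5, 3 of them in its P library of day 2. The summed large subunit level was 2428 CPM in P of experiment 5 on day 2, against 1685 to 1946 in the others. The summed small subunit level was 1242 CPM in the same library (others 944 to 1037), 1251 in PY of experiment 5 on day 2 (965 to 1007) and 1032 in PY of experiment 5 on day 0 (889 to 943). It was low, at 799 CPM, in P of experiment 6 on day 4 (others 1009 to 1111). Mrps22 was at 51.7 CPM in P of experiment 5 on day 2 (others 31.5 to 38.5), Mrps36 at 15.9 CPM in P of experiment 5 on day 4 (10.8 to 12.4), and Mrpl12 at 62.4 CPM in EV of experiment 4 on day 2 (34.3 to 41.2).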

How the results depend on the processing

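Pairing by the experiment block raised the number of members that passed to 6 and 34 in P against EV on days 2 and 4, 15 and 47 in PY against EV, 20 in EV by day 2, 15 and 31 in P by days 2 and 4, 18 in PY by day 2, and 1 for the change of the P to EV difference by day 4. With the block, the shares of all genes called were, in the same order, 5.49%, 10.1%, 10.2%, 15.8%, 22%, 28.6%, 51.5%, 35.6% and 1.32%. Scaling by total counts gave 5 in P against EV on day 4, 1 and 15 in PY against EV on days 2 and 4, and 1 in EV by day 2. Of 17015 genes it called 678 as higher and 19 as lower in P against EV on day 4. For PY these were 503 and 74 on day 2 and 902 and 99 on day 4, and for EV by day 2 they were 417 and 399. Without the filter the numbers were 6 (P against EV, day 4), 3 (PY against EV, day 2), 1 (EV, day 2), 2 and 11 (P, days 2 and 4) and 12 (PY, day 4). Of 43837 genes, 824 were then called higher and 8 lower in P against EV on day 4, and 649 and 7 in PY on day 2. By day 2 these were 263 and 364 in EV and 901 and 634 in P. By day 4 they were 2667 and 2821 in P and 3047 and 2395 in PY. P against EV on day 4 gave 19 with DESeq2, where 6.25% of all genes were called, and 18 without the 2 libraries of lowest total. In the latter 992 of 17286 genes were called as higher and 19 as lower. Leaving out 1 library or experiment gave 1 to 3 and 3 to 27 in P against EV on days 2 and 4, 1 to 8 and 12 to 36 in PY against EV, 0 to 12 and 26 to 40 in EV by days 2 and 4, 1 to 8 and 14 to 22 in P, 4 to 12 and 13 to 24 in PY, and 0 elsewhere. The shares of all genes called in these leave-out fits are not given here. The member median in P against EV on day 4 stayed between 0.23 and 0.35 and that in PY between 0.30 and 0.43 in these fits. The calls of Mrpl12, Mrps22 and Mrps35 on day 4 in P held in every alternative run. Member medians changed sign only where they lay near 0 (P and PY against EV on day 0, PY against P, and P and PY over days). Named members changed sign only near 0 in P on day 4: Mrpl33 (0.0044 with RLE, 0.041 without the filter, 0.030 without the lowest totals, 0.0038 with DESeq2, −0.041 to 0.054 leaving out libraries or experiments), Mrpl52 (−0.14 to 0.021 leaving these out), Mrpl58 (−0.019 with total counts, −0.038 to 0.11 leaving out) and Mrps12 (−0.0020 with total counts, −0.087 to 0.16 leaving out). The causes of these shifts were not tested.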
